A study of Arabidopsis thaliana with 24 samples.

Results

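A set of 23 Arabidopsis thaliana genes had lower messenger RNA signals in rosettes 6 h after a move to 10 or 8 °C and signals near those of 20 °C plants 78 h after the move. The genes were chosen by these values, among 13513 probe sets that the array annotation assigns to a single gene. Each group of plants was measured on an array marked A and an array marked B. In both letters, the mean log2 signal at 10 and 8 °C minus that at 20 °C had to be -0.7 or lower at 6 h, and the mean of the same difference over the letters had to be -0.2 or higher at 78 h. In all, 25 probe sets met both thresholds, and SECA2 and AT1G60590 were left out by name. The values at 20, 10 and 8 °C that chose the members are therefore given as a description. The main tests were made on the arrays of 17, 14 and 12 °C, which the choice did not use.

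The plants were wild-type Columbia-0, with no transgene or mutation named. They were 4 weeks old and had grown in soil at 20 °C, with a light period of 12 h at 130 µmol per square metre and second. Controls stayed at 20 °C, and the others went to 17, 14, 12, 10 or 8 °C when the lights had been on for 4 h. Rosettes were frozen after 6 h or 78 h, 10 h into the light in both cases, and 3 rosettes were pooled for a sample. Each of the 12 groups had 2 one-colour arrays, and the labels name no separate batches of plants, so p-values measure the spread between these samples, which may be technical.

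A cooled leaf changes the abundance of many messenger RNAs within hours. Part of this early response fades while the plant stays in the cold, and another part lasts as acclimation proceeds. Here the early and the late harvest each had controls of the same time of day. A signal of bulk rosette RNA cannot tell fewer cells of a type from less RNA per cell.

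Plant transcripts were read by 22746 probe sets on 24 arrays, and the deposited log2 signals lay between 3.87 and 14.81, with array medians from 7.15 to 7.25. Of the leaf markers, LHCB4.1, RCA, PSAN and PRK averaged 14.43, 13.95, 13.62 and 13.35, close to the upper end of that range. For 10 and 8 °C minus 20 °C, PRK was lower at both harvests, by -0.39 in A and -0.38 in B at 6 h and by -0.40 and -0.53 at 78 h. RCA, LHCB4.1 and PSAN had differences from 0.00 to 0.33 at 6 h and from -0.43 to -0.04 at 78 h. Of the root markers, the expansins EXPA7 and EXPA18 were dim, at 5.97 and 5.56, with differences from -0.07 to 0.02 at 6 h and from -0.12 to 0.19 at 78 h. The root beta-glucosidase PYK10 averaged 9.20, with differences of -0.08 in A and 0.01 in B at 6 h and of -1.70 and -1.50 at 78 h. The part of these tissues in the results below was not tested. The A and B arrays differed in a way that was shared between groups, so each test is given without the letter and also with it as a block.

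The mean fall that chose the members, over both letters, ran from -0.77 (AT3G22210) to -1.42 (AT1G72030) with a median of -0.89, which is a fold of 1.71 to 2.67. At 78 h the same difference ran from -0.18 to 0.40 with a median of -0.07. The members covered a wide range of brightness, with mean signals from 6.09 (AT3G19550) to 12.17 (AT3G22210) and a median of 8.65, against 7.20 over all probe sets tested. All 23 lay on probe sets with the plain suffix of a probe set designed for 1 transcript, and none had a further single-gene probe set. Each matched the TAIR10.1 gene table of RefSeq, and 3 carried a symbol other than the locus code, TBL26 (AT4G01080), RR16 (AT2G40670) and DER2.1 (AT4G21810). The roles given below are general background on these loci and families. The closest members in gene order, AT1G49010 and AT1G49180, were 19 genes apart.

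Among members with a part in gene regulation or signalling, AT1G49010 encodes a MYB-related transcription factor. At 6 h its log2 signals were 8.11 and 8.28 at 8 °C (A and B) and 8.12 and 8.10 at 10 °C, against 9.32 and 9.34 at 20 °C. At 78 h they were 8.93 and 8.94 at 8 °C and 9.12 and 9.09 at 10 °C, against 9.11 and 9.20 at 20 °C. The letters nearly coincided. The cold and control arrays stood apart at 6 h, as the rule asked, and at 78 h only 8 °C lay below 20 °C in both letters.

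RR16 encodes a type-A response regulator, a small protein that is induced by cytokinin and damps its signalling. Its signals at 6 h were 7.53 and 8.97 at 8 °C and 7.01 and 8.63 at 10 °C, against 8.19 and 9.73 at 20 °C. At 78 h they were 8.53 and 9.60 at 8 °C and 8.21 and 9.70 at 10 °C, against 8.18 and 9.41 at 20 °C. Its B arrays were brighter than its A arrays by 1.38 on average over the 12 groups, more than the cold changed it, so the groups overlapped across letters while the direction was shared within each letter.

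AT1G76110 encodes a protein with an ARID and an HMG-box DNA-binding domain, and AT1G52770 a protein of the NPH3 family, named after a blue-light signalling partner of the phototropins. AT1G76110 had 7.01 and 7.23 at 8 °C and 6.80 and 6.92 at 10 °C, against 7.96 and 8.09 at 20 °C at 6 h. AT1G52770 had 7.74 and 8.16 at 8 °C and 7.75 and 7.94 at 10 °C, against 8.95 and 9.01 at 20 °C. In both genes all cold arrays of 6 h lay below both control arrays, a separation that the rule favoured. At 78 h AT1G52770 was still a little lower at 8 °C in both letters, at 8.52 and 8.76 against 8.81 and 8.92 at 20 °C.

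**Figure D1:**
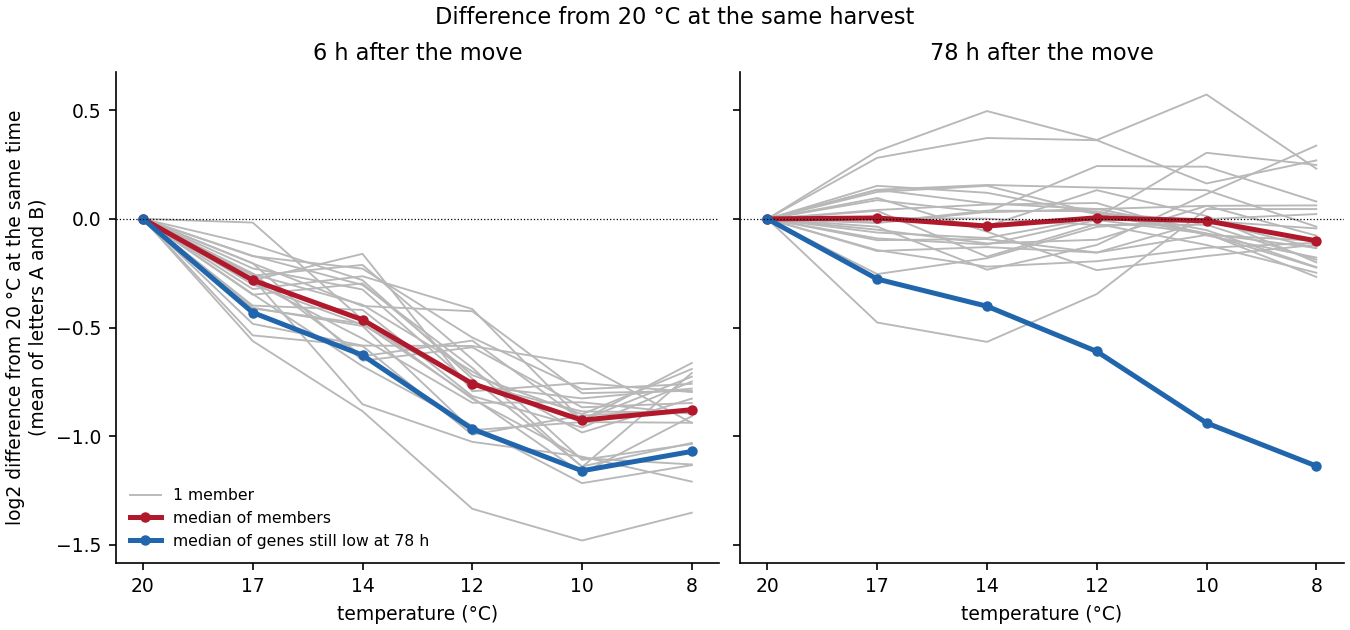
Log2 difference of each temperature from 20 °C at the same harvest (mean of letters A and B) for the 23 members (grey lines), with their median (red) and the median of 72 genes lowered by the same measure at 6 h and still lowered at 78 h (blue). At 6 h the median of the members runs from -0.28 at 17 °C to -0.93 at 10 °C and -0.88 at 8 °C, and at 78 h it stays between -0.10 and 0.01.

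Of the members linked to organelles, AT4G28080 and AT1G15290 belong to 1 family of large tetratricopeptide-repeat proteins related to the CLU proteins that keep mitochondria distributed in the cell, and family members are known to affect how much of a leaf cell chloroplasts fill. AT4G28080, one of the brightest members, had 10.57 and 10.33 at 8 °C and 10.60 and 10.53 at 10 °C, against 11.47 and 11.84 at 20 °C at 6 h. At 78 h it had 11.39 and 11.30 at 8 °C and 11.55 and 11.57 at 10 °C, against 11.47 and 11.62 at 20 °C.

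AT1G15290 had 8.79 and 8.48 at 8 °C and 8.73 and 8.64 at 10 °C, against 9.50 and 9.57 at 20 °C at 6 h. At 78 h it had 9.75 and 9.51 at 8 °C and 9.76 and 9.60 at 10 °C, against 9.44 and 9.32 at 20 °C. It thus went past the control in both letters, on arrays that the rule used. AT5G13770 and AT1G31920 encode pentatricopeptide-repeat proteins, a family that acts on organelle RNA. AT5G13770 was 0.89 lower at 6 h on the mean log2 scale and 0.03 lower at 78 h, and AT1G31920 was 0.83 lower at 6 h and 0.12 lower at 78 h.

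The enzymes began with the deepest fall of all. AT1G72030, of the acyl-CoA N-acyltransferase superfamily, had 8.89 and 9.01 at 8 °C and 8.74 and 8.90 at 10 °C, against 10.23 and 10.37 at 20 °C at 6 h. At 78 h it had 9.93 and 10.07 at 8 °C and 10.01 and 10.26 at 10 °C, against 10.10 and 10.05 at 20 °C. The signal at 8 °C averaged 8.95 ± 0.09 against 10.30 ± 0.10 at 20 °C at 6 h, and 10.00 ± 0.10 against 10.08 ± 0.04 at 78 h (SD, n = 2).

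TBL26 belongs to the TRICHOME BIREFRINGENCE-LIKE family, whose members add acetyl groups to cell wall polysaccharides. Its signals at 6 h were 9.08 and 8.58 at 8 °C and 9.34 and 8.38 at 10 °C, against 10.65 and 9.27 at 20 °C. At 78 h they were 10.26 and 10.11 at 8 °C and 10.46 and 10.60 at 10 °C, against 9.59 and 10.33 at 20 °C. Its controls disagreed: the A control was the brighter one at 6 h and the dimmer one at 78 h, and its 78 h difference of 0.40, the highest of all members, was 0.77 in A and 0.03 in B.

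AT2G29340 encodes a short-chain dehydrogenase of the tropinone reductase-like group. It had 7.52 and 7.55 at 8 °C and 7.69 and 7.39 at 10 °C, against 8.61 and 8.34 at 20 °C at 6 h. AT2G30150, a UDP-glycosyltransferase, had 8.11 and 8.21 at 8 °C and 8.07 and 8.26 at 10 °C, against 9.01 and 9.09 at 20 °C at 6 h. The rule used these arrays, so the separation of cold from control in both genes is a description only. At 78 h AT2G29340 was slightly above the control in both letters, by 0.20 in A and 0.12 in B, while the letters of AT2G30150 had differences of 0.01 and -0.19.

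AT3G53220 encodes a protein of the thioredoxin superfamily. At 6 h it had 5.93 and 6.22 at 8 °C and 6.31 and 6.38 at 10 °C, against 6.90 and 7.13 at 20 °C. At 78 h it had 6.77 and 7.02 at 8 °C and 6.64 and 6.69 at 10 °C, against 6.25 and 6.86 at 20 °C. Its control was lower at 78 h than at 6 h by -0.65 in A and -0.27 in B, the largest such shift of the members on average (-0.46). Against the 6 h control its cold arrays of 78 h were at -0.24.

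DER2.1 encodes a derlin, a membrane protein through which misfolded proteins leave the endoplasmic reticulum for degradation, and AT1G49180 a protein kinase. DER2.1 had 8.41 and 8.28 at 8 °C and 8.39 and 8.39 at 10 °C, against 9.20 and 9.09 at 20 °C at 6 h. At 78 h it had 8.90 and 9.08 at 8 °C and 8.96 and 9.26 at 10 °C, against 9.14 and 9.11 at 20 °C. The arrays of 10 °C thus overlapped the control, while both of 8 °C still lay below both control arrays. AT1G49180 was the member closest to the 78 h threshold, with differences of -0.26 in A and -0.10 in B.

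The other 8 members are AT1G68585, AT3G22210, AT5G03440, AT3G19550, AT1G01770, AT4G24175, the filament-like protein AT1G77580 and the glycine-rich protein AT4G10330. Their mean falls at 6 h lay between -0.77 (AT3G22210) and -1.07 (AT1G68585). AT3G22210, the brightest member, had 11.53 and 11.82 at 8 °C and 11.50 and 11.80 at 10 °C, against 12.36 and 12.51 at 20 °C at 6 h. AT1G01770 returned in only one letter, with 78 h differences of -0.48 in A and 0.15 in B.

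AT4G24175 had a pattern of its own at 78 h. Its differences from the 78 h control were -0.41 and -0.54 at 17 °C, -0.51 and -0.63 at 14 °C and -0.17 and -0.52 at 12 °C. At 10 °C they were 0.18 and -0.09, and at 8 °C 0.14 and -0.05. It was thus back at the control level at the coldest temperatures while it was low at the mild ones. The rule asked for the return at 10 and 8 °C, and all of these differences share the 78 h control arrays that it used.

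**Figure D2:**
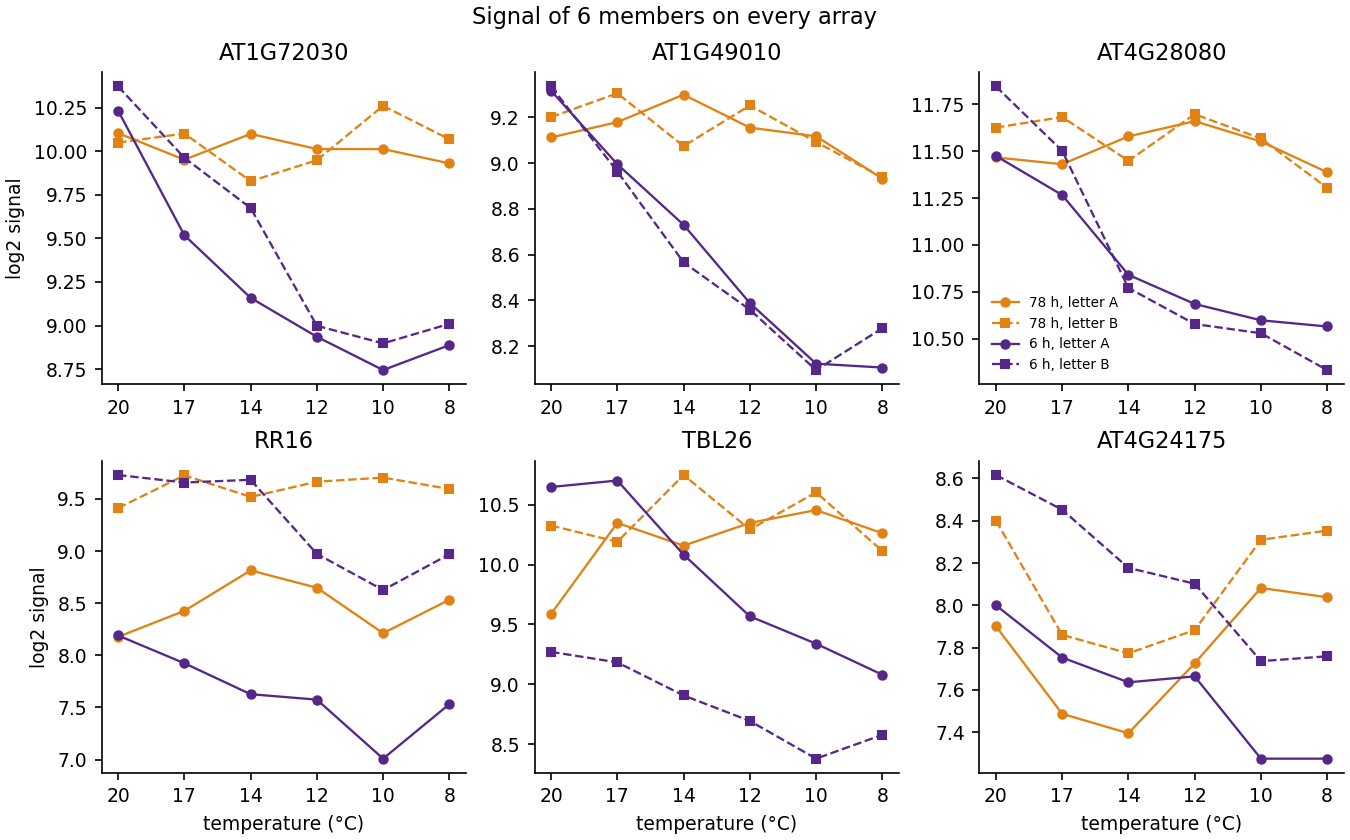
Log2 signal on every array against temperature for 6 members, at 78 h (orange) and 6 h (purple), with letter A as circles and solid lines and letter B as squares and dashed lines. RR16 differs between letters at every temperature, the A and B controls of TBL26 change order between harvests, and AT4G24175 is lowest at 17 and 14 °C at 78 h.

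How the fall at 6 h followed temperature was described on all arrays. The median difference from 20 °C was -0.28 at 17 °C, -0.46 at 14 °C, -0.76 at 12 °C, -0.93 at 10 °C and -0.88 at 8 °C. The members at 8 °C differed from those at 10 °C by a median of 0.05, over values from -0.27 to 0.43. At 17 °C 22 of 23 members were lower than at 20 °C in both letters, against 30.4% of all probe sets, but these differences share the control arrays that chose the members. The mildest cooling left TBL26 almost at its control (-0.02) and took AT1G72030 and AT5G13770 lowest (-0.56 and -0.54).

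The comparison of 12 with 17 °C at 6 h uses none of the arrays that chose the members. All 23 members had a lower mean at 12 °C, with differences from -0.81 (TBL26) to -0.09 (AT1G49180) and a median of -0.46, against -0.01 over all probe sets tested. In both letters 22 members were lower, AT3G53220 being the exception (0.03 in A and -0.23 in B), against 32.5% of all probe sets. Within letters the median was -0.42 in A and -0.47 in B. In fits without the letter as a block, it was -0.26 without the 12 °C A array of 6 h (21 members negative). It was -0.28 without the 17 °C B array of 6 h (18 negative). In 15 members (65.2%) both 12 °C arrays lay below both 17 °C arrays, against 11.9% of all probe sets.

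By limma with Benjamini-Hochberg adjustment over all 22746 probe sets, 0 members passed an adjusted p of 0.05 without the letter block, and 0.0% of all probe sets did. At an unadjusted p below 0.05, 12 members were lower, against 2.22% of all probe sets, and 16 with the block, against 5.7%. When the letter was added as a block, 3 members fell, against 0.176% of all probe sets lower and 0.308% higher. With the arrays of all 24 samples in the fit and no block, 3 fell as well, against 0.0572%. These were AT4G28080 at -0.75 ± 0.11 (limma estimate ± SE, adjusted p = 0.0322 with the block and 0.219 without it), AT1G49010 at -0.61 ± 0.10 (limma adjusted p = 0.0411 and 0.277) and AT1G15290 at -0.56 ± 0.09 (limma adjusted p = 0.0446 and 0.488). AT4G28080 and AT1G49010 were called in both of these fits, AT1G15290 with the block and AT4G10330 (-0.54) with all arrays. The block leaves the estimates as they are and alters only their error. None of the measured leaf and root markers passed in this contrast.

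The 3 genes called with the block were picked on these arrays, so their values are a description only. AT4G28080 had 10.69 and 10.58 at 12 °C, against 11.27 and 11.50 at 17 °C. AT1G49010 had 8.39 and 8.36 at 12 °C, against 8.99 and 8.96 at 17 °C. AT1G15290 had 8.75 and 8.62 at 12 °C, against 9.27 and 9.21 at 17 °C. In all 3 genes the arrays of the colder group lay below those of the milder one. TBL26 had a larger difference (-0.81) with a much larger error (0.55 without and 0.43 with the block), and AT1G72030, at -0.77, did not pass either (limma adjusted p = 0.12 with the block).

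Between 14 and 17 °C at 6 h the difference was smaller. The median of the members was -0.13, against 0.02 over all probe sets, and 14 members were lower in both letters (background 20.0%). Within letters the median was -0.17 in A and -0.13 in B. In fits without the block it moved when 1 array of 6 h was left out. It was -0.01 without either the 14 °C A or the 17 °C B array (12 members negative, against 19 with all arrays). It was -0.23 without the 17 °C A array and -0.25 without the 14 °C B array. Such a fit sets 1 letter against the mean of both, so the difference between letters enters it. AT4G28080 had the largest value, with 10.84 and 10.77 at 14 °C, against 11.27 and 11.50 at 17 °C. By limma 0 members passed the adjusted test (0.0% of all probe sets in either direction), without or with the block. At an unadjusted p below 0.05, 2 were lower without the block, against 0.655% of all probe sets, and 4 with it, against 2.23%.

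**Figure D3:**
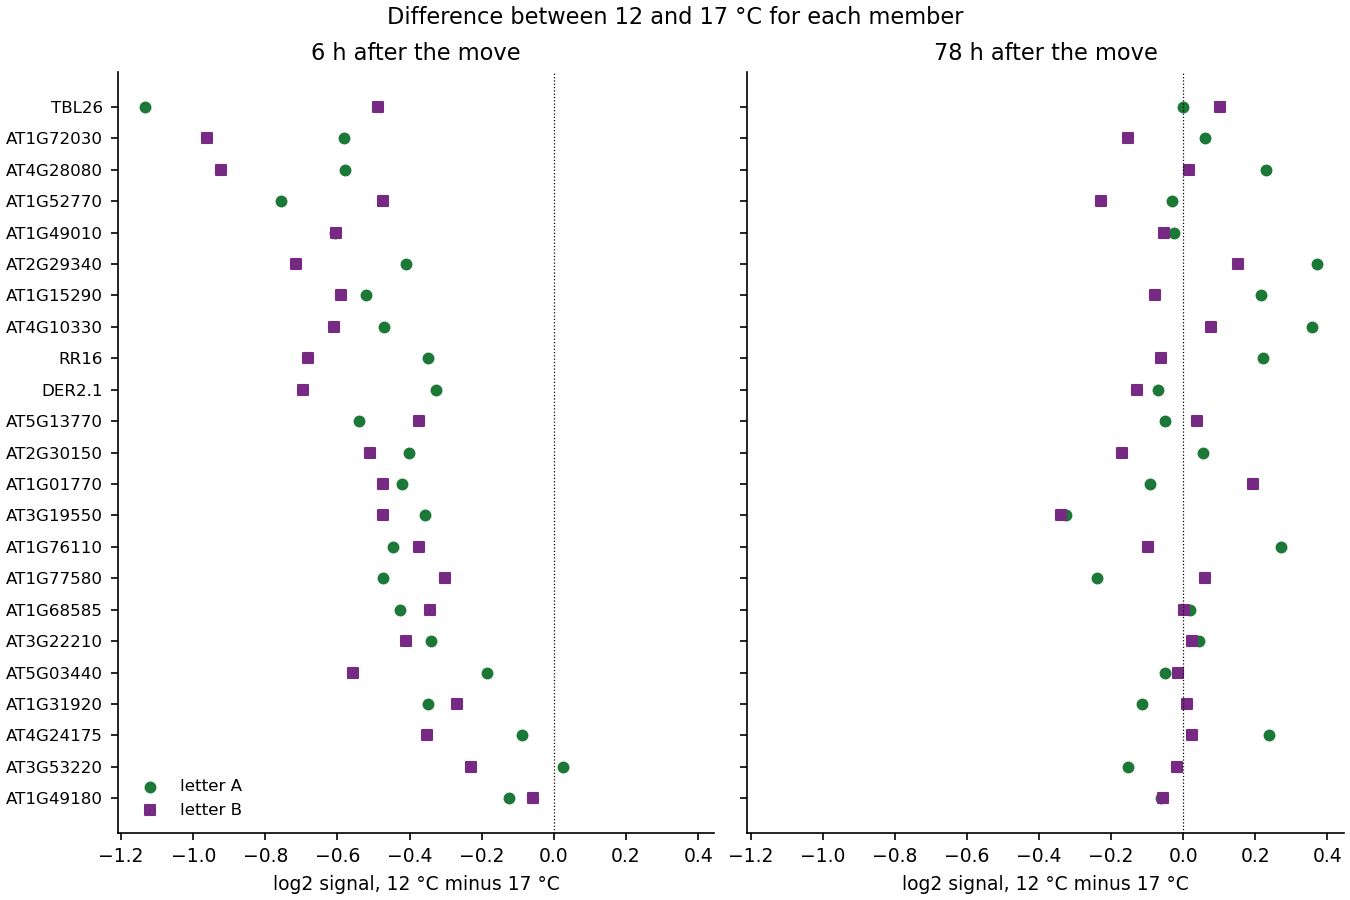
Log2 signal at 12 °C minus that at 17 °C for each member in letter A (green circles) and letter B (purple squares), at 6 h and at 78 h, on arrays not used to choose the members. At 6 h 22 members lie below 0 in both letters, and at 78 h the values lie around 0.

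At 78 h the same comparison showed no common direction. The median of 12 minus 17 °C was -0.01 over the members, against -0.02 over all probe sets, with values from -0.33 (AT3G19550) to 0.26 (AT2G29340). In both letters 7 members were lower and 6 higher, against 33.8% and 22.9% of all probe sets. By limma 0 members passed the adjusted test in either fit, and of all probe sets 0.0% passed without the block and 0.0044% with it, as higher. At an unadjusted p below 0.05 only AT3G19550 was lower among the members, without and with the block, against 1.54% and 4.95% of all probe sets. AT3G19550, the dimmest member, had 6.04 and 6.08 at 12 °C, against 6.36 and 6.42 at 17 °C.

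The change of this contrast between the harvests was positive in all 23 members, with a median of 0.45 against -0.01 over all probe sets, and it was positive in both letters in 22 members (background 25.2%). Within letters the median was 0.46 in A and 0.43 in B. In fits without the block, it was 0.27 without the 12 °C A array of 6 h. It was 0.25 without the 17 °C B array of 6 h, with 4 members negative in each case. No single gene passed the test of this difference. The members' adjusted p were all 1.0 in limma without the block, and at least 0.431 with it. At an unadjusted p below 0.05 without the block there were 6 members, against 0.875% of all probe sets, and 11 with it, against 3.19%. AT4G28080 had the largest change, 0.87 ± 0.16, followed by TBL26 at 0.86 ± 0.78 and AT2G29340 at 0.82 ± 0.26 (SE without the block).

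Set against the 6 h harvest at the same temperature, the median of the members was higher at 78 h at every temperature below 20 °C. The median of 78 h minus 6 h was -0.11 at 20 °C, 0.17 at 17 °C, 0.31 at 14 °C, 0.66 at 12 °C, 0.81 at 10 °C and 0.74 at 8 °C. The values at 20, 10 and 8 °C follow in part from the rule, which used those arrays, and are a description only. At 12 °C 21 members were higher at 78 h in both letters, against 30.6% of all probe sets, and in 18 (78.3%) both arrays of 78 h lay above both of 6 h, against 16.9% of all probe sets. At 17 °C 15 members were higher in both letters (background 30.3%), and at 14 °C 15 were (background 23.4%). Both arrays of 78 h lay above both of 6 h in 14 members (60.9%) at 14 °C, against 12.1% of all probe sets.

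Between the harvests at 12 °C, 4 members rose by limma without the block, against 0.171% of all probe sets. AT2G29340 had 8.91 and 8.80 at 78 h, against 7.76 and 7.25 at 6 h, a rise of 1.35 ± 0.18 (limma adjusted p = 0.0442). AT4G28080 had 11.66 and 11.70 at 78 h, against 10.69 and 10.58 at 6 h, a rise of 1.04 ± 0.11 (limma adjusted p = 0.0344). AT1G49010 and AT4G10330 each rose by 0.83 ± 0.10 (limma adjusted p = 0.0358 for both). The 78 h arrays of all 4 genes lay above their 6 h arrays, which are the arrays that called them.

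When the letter was added as a block, 12 members rose, against 3.48% of all probe sets. With all 24 arrays and no block 9 rose, against 0.831%, again with an error drawn in part from arrays that chose the members. Beside these 4, both fits called AT1G72030 (1.01), AT1G76110 (0.86), DER2.1 (0.80) and AT1G15290 (0.70), in log2. The fit with the block added AT1G68585 (0.68), AT1G52770 (0.64), AT2G30150 (0.56) and AT3G22210 (0.51). The fit with all 24 arrays added AT5G13770 (0.66). Not all of the 4 calls without the block stood when any 1 array was left out. Such a fit loses a residual degree of freedom and leaves a group with 1 array, so it cannot show which array carried a call. The median of the members was 0.50 without the 12 °C A array of 6 h and 0.75 without the 12 °C B array of 6 h. The smallest values at 12 °C were those of AT3G53220 (0.00) and AT4G24175 (-0.08).

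**Figure D4:**
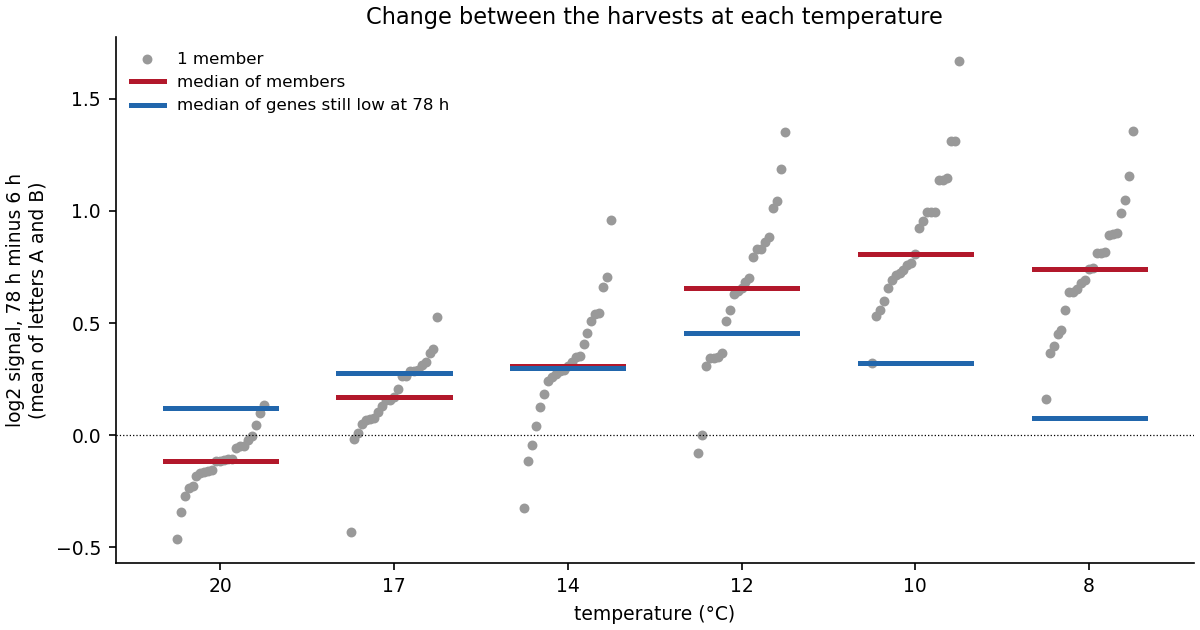
Log2 signal at 78 h minus that at 6 h at each temperature (mean of letters A and B) for the 23 members (grey points, sorted within a temperature), with their median (red) and the median of the 72 genes that were still lowered at 78 h (blue). The median of the members is -0.11 at 20 °C and 0.74 at 8 °C, and that of the genes still lowered is 0.12 and 0.08, on arrays that chose both sets.

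The controls themselves moved between the harvests. At 20 °C 14 members were lower at 78 h than at 6 h in both letters, against 25.3% of all probe sets, and 1 was higher, AT4G10330. The rule used these arrays. Against the 6 h control in place of the 78 h control, the mean of 10 and 8 °C at 78 h differed by a median of -0.21, from -0.45 (AT5G03440) to 0.40 (TBL26). By that measure 11 members were at -0.2 or higher and 12 were below it. These counts are a description only, on arrays that chose the members, and the share of all probe sets was not computed. AT1G15290 (0.12), AT2G29340 (0.30), AT4G10330 (0.11), RR16 (0.05) and TBL26 were above the 6 h control as well.

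The members were set beside genes that met the same 6 h threshold and were still lowered at 78 h. The 6 h threshold was met by 168 single-gene probe sets, of which 72 also had a 78 h difference of -0.7 or lower. These 72 fell further, with 6 h medians of -1.16 at 10 °C and -1.07 at 8 °C, against -0.93 and -0.88 in the members. On the arrays not used for the choice, the members had a median of -0.46 for 12 minus 17 °C at 6 h, against -0.49 in the genes still lowered, and of -0.01 at 78 h, against -0.36 in the genes still lowered. Between the harvests at 12 °C the members had a median of 0.66, against 0.45 in the genes still lowered. By limma 4 of the 72 rose there without the block (0.171% of all probe sets), 29 with it (3.48%) and 10 with all 24 arrays (0.831%). At 17 and 14 °C the medians between the harvests were 0.17 and 0.31 in the members, against 0.28 and 0.30 in the genes still lowered. The corresponding medians at 10 °C, 0.81 against 0.32, and at 8 °C, 0.74 against 0.08, come from arrays that chose both sets and are a description only. These differences between the sets were not tested.

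Relatives of the members, were picked after values could be seen and are described without a test. The cold difference below is again that of 10 and 8 °C from 20 °C, as a mean of both letters. Of the clustered-mitochondria relatives, AT1G01320 is on a bright probe set (mean 11.30) with -0.58 at 6 h and 0.00 at 78 h, and on a dimmer one (8.62) with -0.03 and -0.28, so its probe sets disagree. Among the derlins, the brighter probe set of DER1 had -0.53 at 6 h and 0.01 at 78 h, close to the pattern of DER2.1, its dim one (mean 4.30) had 0.03 and 0.01, and DER2.2 went the other way, with 0.34 and 0.19.

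ARR15, another type-A response regulator, had 0.06 in A and 0.39 in B at 6 h and 0.47 and 0.43 at 78 h, so it was not lowered. The other 4 response regulators measured were dim, with mean signals from 4.85 to 5.69. Of the 21 other probe sets of the TBL family, the median was 0.02 at 6 h and 0.04 at 78 h, and none met the 6 h threshold in both letters. TBL36 came nearest, with -0.77 at 6 h and -0.84 at 78 h, and TBL35 had -0.52 and -0.14.

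Near the thresholds, the members that just met the 6 h limit were AT3G22210 (-0.84 in A and -0.70 in B) and AT4G24175 (-0.73 and -0.87). The genes just outside were OS9 (-0.68 and -1.03, with -0.01 at 78 h), a lectin of the endoplasmic reticulum that takes part in the same degradation as derlins, and AT2G20480 (-0.90 and -0.68, with 0.03 at 78 h). At the 78 h limit AT1G49180 (-0.18) and AT1G01770 (-0.17) were just inside, and AT1G54820 (-0.21) and AT4G29520 (-0.21) just outside.

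Lists of genes of the clock, light signalling, auxin, brassinosteroid, gibberellin, sugar starvation, heat shock, nitrate and sulphate assimilation, glucosinolates, wall growth and the cell cycle held 154 genes. Only 13 of these were on probe sets with a single named gene, none of them a member, and 3 lists had no measured gene. Between 12 and 17 °C at 6 h 1 of the 13 passed limma's test, the clock gene GI, which rose by 0.63 (limma adjusted p = 0.0447 with the block, not called without it). None passed at 78 h in either fit.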

How the data were processed

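The deposited values are on a log scale, taken as log2 from their range, and were normalized between arrays by the authors; no source used here names the method, background correction or software. Per the labels' protocols, Trizol RNA was made into biotin-labelled cRNA. The deposited normalization was kept, and the 64 control probe sets were left out. One mean per group was fitted with limma 3.58.1 (R 4.3.3) to the 12 arrays of 17, 14 and 12 °C (6 residual degrees of freedom, 5 with the letter as a block), with Benjamini-Hochberg adjustment over 22746 probe sets at 0.05. The differences between the A and B arrays of a group correlated between 0.52 and 0.89 over all 66 pairs of groups, so the letters pair the arrays. All members are named, with the nearest genes outside each threshold. Members and lists were chosen with earlier results of these data known. The array annotation lists several genes for 503 probe sets and no gene for 8730. The fits were tested on simulated data. Alternatives were other normalizations, a filter on dim probe sets, trend and robust estimation, all 24 arrays, and leaving out each array. A planned motif search was not run, as no promoter sequence was used here. The number of arrays limits the precision.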

Additional observations from a re-analysis of the deposited data

How the results depend on the processing

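Members called with all 24 arrays and the replicate block, added after the data were seen, were 8 for 12 against 17 °C at 6 h and 16 for 78 h against 6 h at 12 °C. No share of all probe sets was computed for this fit, for trend and robust estimation or for cyclic loess, so their counts here have no background. Both fits of all 24 arrays take part of their error from arrays that chose the members. All 24 arrays without the block gave 3 and 9. The replicate block on the 12 arrays gave 3 and 12, against 0 and 4 without it, and changed no other count. For 78 h against 6 h at 12 °C, trend and robust estimation gave 1 and cyclic loess 3, and leaving out 1 array gave 0 to 3. The rule found 25 members with median centring, 22 with cyclic loess, 4 with a fall of at least 1.0 and 9 with a 78 h value of at least 0. Leaving out 1 array turned the sign of some members. These fits had no block, so a group left with 1 letter was set against the mean of both letters. The difference between letters thus enters their values. In RR16, with B arrays brighter by 1.38 on average, 12 minus 17 °C at 6 h was -0.35 within A and -0.68 within B. How much the letters moved each member was not tested. For 12 minus 17 °C at 6 h the values then ran from -1.38 to 0.35 in RR16, -0.27 to 0.064 in AT3G53220, -0.57 to 0.13 in AT4G24175, -0.75 to 0.01 in AT5G03440 and -0.29 to 0.10 in AT1G49180. For the change of this contrast they ran from -0.27 to 1.46 in RR16, -0.004 to 0.60 in AT1G77580, -0.067 to 0.23 in AT3G19550, -0.15 to 0.19 in AT3G53220, -0.043 to 0.72 in AT5G03440 and -0.16 to 0.23 in AT1G49180. For 78 h minus 6 h at 12 °C they ran from -0.10 to 0.11 in AT3G53220 and -0.30 to 0.14 in AT4G24175. The median of the members kept its sign for 12 minus 17 °C at 6 h (-0.57 to -0.26), the change (0.25 to 0.57), 78 h minus 6 h at 12 °C (0.50 to 0.75) and 14 minus 17 °C at 6 h (-0.25 to -0.005) under every setting run, and crossed 0 for 12 minus 17 °C at 78 h (-0.09 to 0.05).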

Other observations

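A further 15 probe sets, all without a gene in the annotation used here, met both thresholds among the 9233 that do not name a single gene. Their medians were -0.95 at 6 h and -0.05 at 78 h, for 10 and 8 °C minus 20 °C. On the arrays not used for the choice, the median of 12 minus 17 °C was -0.44 at 6 h and 0.07 at 78 h. Of the 72 genes that were still lowered at 78 h, the number called lower at 12 than at 17 °C at 6 h by limma depended on the fit: 9 with the letter block (0.176% of all probe sets), 2 with all 24 arrays (0.0572%) and 0 without the block (0.0%). At 78 h it was 0 in all of these fits.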
